A study of Mus musculus with 4 samples.

Results

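Central 1 is a deposited cluster of mouse liver nuclei whose leading genes mark the hepatocytes next to the central vein. Its members were all nuclei that carried this name in the deposited table, 218 of 5193 nuclei and 218 of the 4410 nuclei in the 13 hepatocyte clusters. The cluster had been made from the same expression values, so that every difference from other hepatocytes given here describes the cluster and was not tested.

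Single-nucleus RNA-Seq was performed on frozen liver of 3 WT and 3 HNKO mice, with 4250 nuclei sorted per mouse. All 6 mice were females on the C57BL6/BomTac background with a floxed Nampt gene, 8 to 12 weeks of age at the start, and had received a purified control diet for 6 weeks. HNKO mice also carried Cre driven by the albumin promoter, so that Nampt is targeted in hepatocytes, whereas WT mice carried no Cre. The mice came from a cohort in which some animals drank nicotinamide riboside, and the drinking arm of these 6 mice was not given in the sources used here. Each mouse was marked with its own hashtag antibody before all nuclei were pooled, and mice are numbered here by these hashtags.

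Hepatocytes differ along the path of blood from the portal vein to the central vein, an arrangement called zonation. Endothelial cells of the central vein release Wnt ligands and R-spondin, and the hepatocytes beside them respond through beta-catenin and TCF factors. This innermost layer takes up glutamate and ammonia and makes glutamine, while hepatocytes nearer the portal vein run the urea cycle, glutaminase and much of the breakdown of amino acids.

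Central 1 held 39 nuclei of WT mouse 1, 49 of WT mouse 2 and 43 of WT mouse 3. Among all hepatocyte nuclei of the mouse this was 6.94% (95% exact binomial interval 4.98 to 9.36), 6.87% (5.13 to 8.98) and 6.54% (4.78 to 8.71), so that the WT mice lay within each other's intervals. These and all later intervals cover counting error only. The mice labelled HNKO were uneven. The mouse labelled HNKO 2 gave 80 nuclei, 9.77% (7.82 to 12) of its hepatocytes, whereas the mouse labelled HNKO 1 gave 7 and the mouse labelled HNKO 3 gave 0 of 847, a count that permits a share of 0.354% at most. The hepatocytes with central names of these 2 mice had been placed in separate clusters, namely 93 nuclei of the mouse labelled HNKO 1 in Central HNKO 1 and 78 nuclei of the mouse labelled HNKO 3 in Central HNKO 2.

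The levels below are unique molecular identifiers (UMIs, counted RNA molecules) summed over the nuclei of a cluster in a mouse and scaled to a total of 1e+06 UMIs in that sum (CPM). No gene length enters a CPM, since a 3′ kit counts molecules. Each WT mouse was compared with its own hepatocytes of the 10 clusters without Central in their names, here called non-Central hepatocytes, which numbered 523, 664 and 614 nuclei. Central 1 sums held 259958, 159550 and 287491 UMIs in WT mice 1, 2 and 3, so that WT mouse 2 gave the least precise levels. The median UMI count per nucleus was 3741, 2574 and 4295 in Central 1 and 3560, 3637 and 4136 in non-Central hepatocytes. The difference was -241 ± 712 (SD, n = 3 mice) and was not larger than its spread (exact sign permutation test, two-sided, p = 1, where 3 mice cannot go below 0.25). Unspliced RNA made up 79.0%, 72.1% and 78.1% of Central 1 UMIs and 77.8%, 77.6% and 78.9% of non-Central UMIs. No barcode was shared between mice, and the mouse's own hashtag gave 75% to 80.3% of hashtag counts in WT Central 1 nuclei. Both were largely set in advance, since the authors had assigned each nucleus to a mouse by its hashtags.

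Nampt (chromosome 12, 32819545 to 32853349 in GRCm38, plus strand) was examined first because it is the targeted gene. Nampt was at 42.3, 100 and 62.6 CPM in Central 1 of WT mice 1, 2 and 3, from 11, 16 and 18 UMIs, and at 88.2, 105 and 99.3 in their non-Central hepatocytes. Central 1 of the mouse labelled HNKO 2 had 98.8 CPM (95% interval 70.6 to 135), and the non-Central hepatocytes of the mice labelled HNKO 1, 2 and 3 had 89.5, 152 and 91.8. Nampt counts were thus not lower in hepatocytes labelled HNKO. The sources used here do not give the floxed exons, and a 3′ count over the whole gene, introns included, does not test whether a part of it was deleted. The genotype labels were therefore not checked by these counts, and each mouse is called by its label.

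The 5 markers that define the pericentral layer were high in Central 1 of every WT mouse, which describes the cluster by the genes it was built on. Slc1a2, a glutamate transporter of the cell surface, was the strongest. Its level was 3401, 3936 and 4498 CPM in Central 1 and 43.2, 43.8 and 19.9 in non-Central hepatocytes, a mean log2 ratio of 6.82 ± 0.80 (SD, n = 3), or 113-fold. Glul, the glutamine synthetase that joins glutamate and ammonia, was at 1039, 1605 and 1235 in Central 1 against 49.6, 67.7 and 43.9 (log2 ratio 4.56 ± 0.21). Gna14, a G protein alpha subunit, was at 250, 251 and 275 against 15, 9.36 and 8.61 (4.47 ± 0.45). Lgr5 and Cyp2c37 had smaller ratios and higher levels outside the cluster. Lgr5, the R-spondin receptor, was at 637, 859 and 541 against 43.0, 109 and 55.5 (3.36 ± 0.45), and Cyp2c37, an arachidonic acid-metabolizing P450, was at 927, 819 and 559 against 193, 226 and 62.1 (2.42 ± 0.66). No WT mouse had a marker level in Central 1 that overlapped with the non-Central levels of any WT mouse. For genes the cluster was built on this was in part set in advance, and how many of all genes compared did not overlap was not counted. In WT mouse 1, 1 nucleus gave 47.7% of the Lgr5 UMIs, and the median over its 39 nuclei was 301 CPM.

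**Figure D1:**
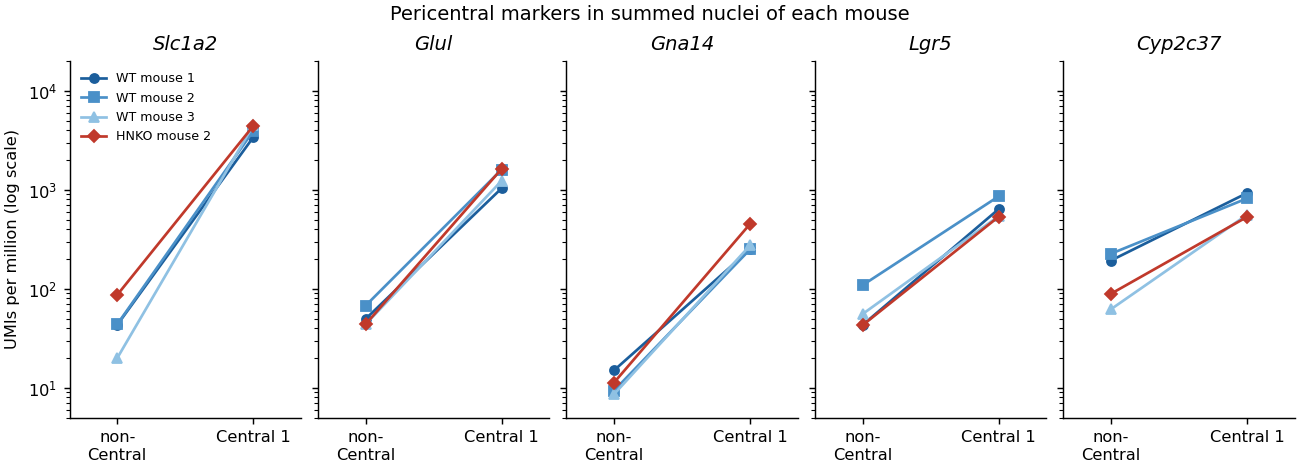
Levels of 5 pericentral markers in CPM (log axis) in non-Central hepatocytes and in Central 1, with 1 line per mouse for the 3 WT mice and the mouse labelled HNKO 2. Every line rises, from the steepest for Slc1a2 (log2 ratio 6.82 over WT mice) to the shallowest for Cyp2c37 (2.42).

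At the gene level the markers lie far apart in the genome. In GRCm38, Slc1a2 lies on chromosome 2 (102658659 to 102790784, plus strand), Glul on chromosome 1 (153899944 to 153909723, plus strand), Lgr5 on chromosome 10 (115450311 to 115587780, minus strand), and Gna14 (16435762 to 16610820) and Cyp2c37 (39992424 to 40012243) on the plus strand of chromosome 19. Lgr5 overlaps A930009A15Rik on the other strand, which also was higher in Central 1. Whether the counting used the strand was not given in the sources used here, so that reads of this pair cannot be told apart.

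Since TCF factors carry the Wnt signal to DNA, promoters were searched on both strands for the letters CTTTGAT, the core of the TCF/LEF motif. The windows reached from 250 bases before to 50 bases after RefSeq gene starts in GRCm38.p6. Of the 4 markers with a window, Slc1a2 had 1 match, and Glul, Gna14 and Cyp2c37 had 0. The window of Slc1a2 is shown because this gene had the highest ratio, with the match in capitals as it reads on the gene's own strand. It lies at chr2:102706188-102706487 on the plus strand, inside the wider gene model given above.
Slc1a2: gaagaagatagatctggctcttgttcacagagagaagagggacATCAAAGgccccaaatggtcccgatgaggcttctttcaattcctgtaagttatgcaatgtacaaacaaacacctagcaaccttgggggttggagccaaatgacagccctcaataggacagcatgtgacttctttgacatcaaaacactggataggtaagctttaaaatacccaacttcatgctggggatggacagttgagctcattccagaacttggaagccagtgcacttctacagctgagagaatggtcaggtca
The motif was present in 1225 of all 32851 windows (3.73%). By gene, 2 of the 31 genes higher in Central 1 that had a window held it (6.45%, Slc1a2 and Tnfrsf19), against 1 of 39 of those lower (2.56%), 70 of the 2201 genes compared that had a window (3.18%) and 4.29% of all genes with a window. A match is a run of letters and not a measured binding site.

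The markers were then counted nucleus by nucleus after each nucleus had been thinned to 1000 UMIs, so that deep and shallow nuclei could be compared. At this depth Slc1a2 had a UMI in 94.7% (89.3 to 97.8) of the 131 WT Central 1 nuclei, in 3.5% of 1801 non-Central hepatocytes and in 4.52% of 199 nuclei of other cell types, which serve as background. Glul was seen in 56.5% (47.6 to 65.1), against 5.77% and 5.53%. For both genes the pooled share in non-Central hepatocytes was at or near that of the other cell types, which was itself uneven. Over all mice Glul was seen in 12.7% of endothelial nuclei and 2.63% of Cholangiocyte 1, in 6.14% to 8.47% of the clusters named Hepatocytes and in 2.27% to 6.19% of those named Periportal. Cyp2c37 was seen in 45.8%, 9.72% and 3.02%, and Lgr5 in 38.9%, 5.39% and 1.51%, so that both were above background in non-Central hepatocytes too. Gna14 was seen in 16.0% (10.2 to 23.5) of Central 1 nuclei and 1.11% of non-Central hepatocytes, but in 10.6% of the other cell types. Over all 6 mice it was seen in 26.6% of Central 1, 23.4% of stellate nuclei, 23.5% of the cluster Cholangiocyte 2, and in 26.6% of Central HNKO 1 and 19.2% of Central HNKO 2. The Central 1 share was 43.8% in the mouse labelled HNKO 2, against 20.5%, 10.2% and 18.6% in WT mice 1, 2 and 3. The share in the hepatocyte clusters without Central in their names was 0.405% to 2.56%, so that Gna14 was shared with the other central clusters and with cells that are not hepatocytes.

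Without thinning, the shares in WT Central 1 were 100% for Slc1a2, 74.0% for Glul, 76.3% for Cyp2c37, 70.2% for Lgr5 and 42.0% for Gna14. At equal depth, 67 of the 131 nuclei (51.1%, 42.3 to 60.0) held at least 3 of the 5 markers, against 5 of 1801 non-Central hepatocytes (0.278%) and 1 of 199 other nuclei. The unthinned numbers were 112 (85.5%) and 95 (5.27%). The markers went with the pericentral name of the cluster. This is a description and no check of the name, since the cluster was made from the same expression values. Alb, the albumin gene, had a UMI in 96.9% of Central 1 nuclei and 98.7% of non-Central hepatocytes, and the level was 4695, 4068 and 5885 against 5495, 5683 and 7377 CPM (log2 ratio -0.35 ± 0.13).

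**Figure D2:**
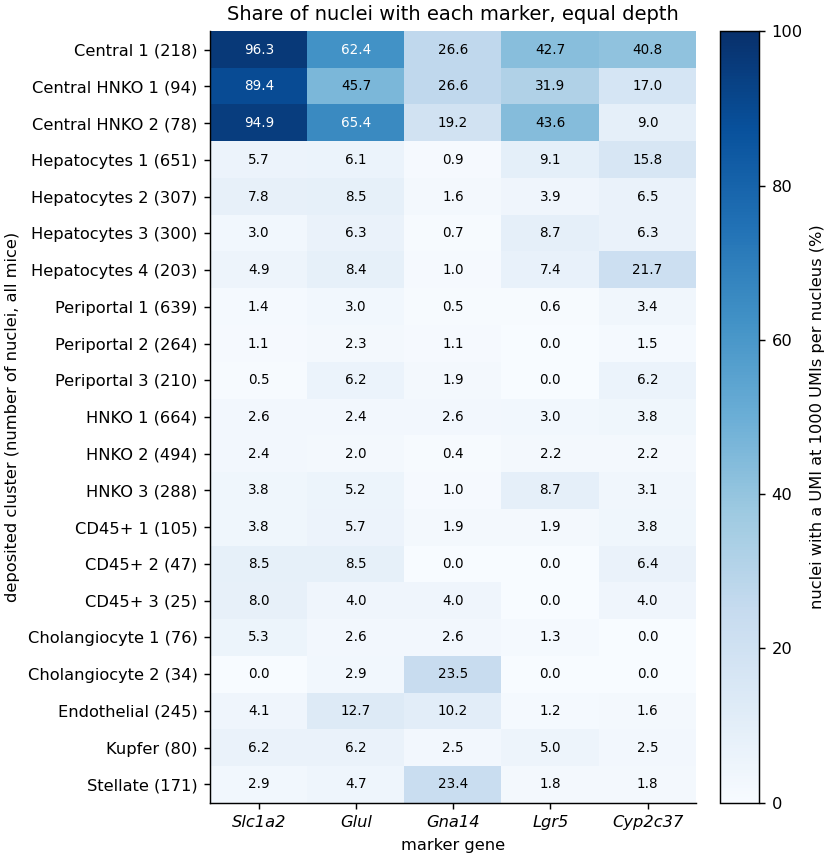
Percentage of nuclei with at least 1 UMI of each marker after thinning to 1000 UMIs per nucleus, for each deposited cluster over all 6 mice (number of nuclei in parentheses). The top 3 rows, the clusters with Central in their names, hold Slc1a2 and Glul in most or many nuclei, while Gna14 is also seen in 23.4% of stellate nuclei and Cyp2c37 falls from 40.8% in Central 1 to 8.97% in Central HNKO 2. In non-Central hepatocytes Cyp2c37 was seen in 2.47% of nuclei of the mouse labelled HNKO 3, which gave Central HNKO 2, and in 9.72% of WT nuclei.

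Over the whole genome, 2845 genes had enough UMIs to be compared, which required that the higher of the 2 levels would give at least 10 UMIs in the Central 1 sum of each WT mouse. Of these, 48 (1.69%) were at least 2-fold higher in Central 1 in each of the 3 WT mice and 62 (2.18%) at least 2-fold lower. These counts describe the cluster. Leaving out a mouse both lowers the number of mice in which a gene must pass and changes which genes have enough UMIs, and the counts rose without any WT mouse, to between 64 and 95 higher and between 79 and 109 lower. They rose the most without WT mouse 2, which had the smallest sum, where 3614 genes could be compared and 95 were higher and 109 lower. The median log2 ratio of all genes compared was -0.07.

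The genes with the highest ratios included transporters, signalling proteins and noncoding RNAs. Slc22a3, a transporter of organic cations, was at 146, 570 and 278 CPM in Central 1 and at 2.45, 2.11 and 3.30 elsewhere (log2 ratio 6.32 ± 1.08). Sgcz, the zeta subunit of the sarcoglycan complex known from muscle, was at 912, 645 and 747 against 16.2, 14.1 and 10.3 (5.73 ± 0.31). Kif26b, a kinesin family member, was at 148, 87.7 and 73.0 against 1.53, 2.11 and 0.721 (5.38 ± 0.52). Slc22a3, Sgcz and Kif26b thus did not exceed 16.2 CPM in the non-Central hepatocytes of any WT mouse. Tnfrsf19, a receptor of the TNF receptor superfamily, was at 127, 107 and 104 against 11, 9.50 and 5.05 (3.63 ± 0.43).

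Other leading genes had a moderate level outside Central 1. Rcan2, a regulator of calcineurin, had the most even ratio over the mice, with 331, 526 and 341 CPM against 36.8, 59.1 and 35.3 (3.17 ± 0.06). Lhpp, a phosphatase, was at 527, 708 and 661 against 52.1, 89.8 and 92.1 (3.04 ± 0.25). Airn, a long noncoding RNA that silences the paternal Igf2r gene, was at 664, 633 and 514 against 57.0, 118 and 90.3 (2.81 ± 0.62). Airn (chromosome 17, 12741311 to 12860136, plus strand) overlaps Igf2r on the other strand, and Igf2r, which had too few UMIs to be compared, had a log2 ratio of 0.61 ± 0.53. Rdh9, a retinol dehydrogenase, was at 194, 263 and 162 against 22.1, 49.2 and 22.1 (2.76 ± 0.34). The gene ENSMUSG00000099009, named Rdh16f1 in the annotation, had a ratio of 2.67 ± 0.39, and its model overlaps that of Rdh9 on the same strand, so that their reads may be shared. The noncoding genes AW549542 (4.21 ± 0.93) and ENSMUSG00000086353 (3.5 ± 0.90) were also among the 15 highest, as were 4 of the 5 markers, all but Cyp2c37.

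Lists of genes were examined next, beside the shares of 1.69% higher and 2.18% lower over all 2845 genes compared. They were chosen with earlier results of these data known. The first held 16 genes that are induced by Wnt/beta-catenin, many of which dampen the pathway again. Only 5 had enough UMIs, and 4 of them were higher by the rule above and 0 lower (median log2 ratio 2.17). Besides Glul and Lgr5 these were Notum, an enzyme that removes the lipid from Wnt proteins, at 57.7, 94.0 and 73.0 CPM against 11.9, 16.9 and 18.6 (2.17 ± 0.25), and Rnf43, a ubiquitin ligase that clears Wnt receptors from the surface, at 372, 755 and 457 against 146, 231 and 153 (1.54 ± 0.18). The related ligase Znrf3 was at 615, 915 and 818 against 314, 438 and 358, a ratio of 1.07 ± 0.11 that did not pass 2-fold in every mouse. Axin2, the best known feedback target, had only 5, 3 and 3 UMIs in Central 1, which was 8.67 times (95% interval 4.33 to 15.5) the number that its non-Central level would give.

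The receptors and transducers of the same pathway formed another list. Of 19 genes on it, 8 could be compared, with 0 higher and 1 lower (median -0.14). The one lower was Tcf7l1, a TCF factor known mainly as a repressor, at 11.5, 25.1 and 10.4 CPM against 135, 141 and 137 (log2 ratio -3.16 ± 0.62). Its relative Tcf7l2 was at 535, 765 and 565 against 669, 652 and 541 (-0.01 ± 0.28). The coreceptors had ratios of opposite sign, with Lrp5 at 0.75 ± 0.22 and Lrp6 at -0.81 ± 0.35, neither of which passed 2-fold in every mouse.

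Glutamine and ammonia handling was split between genes at both extremes. Of 12 genes, 9 could be compared, of which 2 were higher (Slc1a2 and Glul) and 1 lower, with a median of -0.04. The lower one was Gls2, the liver glutaminase that splits glutamine, at 15.4, 25.1 and 13.9 CPM against 230, 234 and 271 (log2 ratio -3.73 ± 0.52). Central 1 nuclei thus held RNA of the glutamine-making enzyme at a high level and RNA of the glutamine-splitting enzyme at a low level in all 3 WT mice. Oat, the ornithine aminotransferase, had too few UMIs to be compared, and the observed number was 5.98 times (2.72 to 11.4) that given by its non-Central level. Glud1 (0.34 ± 0.51), Gpt (0.47 ± 0.23) and the glutamine transporter Slc38a3 (-0.14 ± 0.23) did not pass 2-fold in every mouse.

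Part of the urea cycle was lower. Of 7 genes compared, 3 were lower and 0 higher, against 2.18% and 1.69% of all genes compared. The median log2 ratio was -1.45. Arg1, the arginase of the last step, was at 100, 182 and 369 CPM in Central 1 against 1330, 1361 and 1516 (-2.88 ± 0.84). Asl, argininosuccinate lyase, was at 219, 201 and 289 against 781, 674 and 905 (-1.74 ± 0.09), and Ass1, argininosuccinate synthase, had a ratio of -1.60 ± 0.58. Cps1, which starts the cycle by fixing ammonia, was at 3651, 4355 and 10915 against 13588, 14529 and 18113 (-1.45 ± 0.63). It did not pass 2-fold in WT mouse 3, where 1 nucleus gave 33.0% of the Cps1 UMIs of Central 1. The median nucleus of Central 1 had 1281, 1743 and 3886 CPM of Cps1, against 10576, 12001 and 14967 in non-Central hepatocytes. The summed nuclei of other cell types had 2066, 3075 and 2341 CPM, below the sum of Central 1 in each mouse. The median Central 1 nucleus, however, was below these levels in WT mice 1 and 2 and above in WT mouse 3. For Arg1 the other cell types had 256, 317 and 270 CPM, above the Central 1 sum in WT mice 1 and 2. Slc25a13, the aspartate carrier, was the one urea cycle gene above 0, at 0.21 ± 0.16.

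Many periportal genes were lower. Of the 31 on the list, 23 could be compared, with 11 lower and 1 higher (median -1.55), against 2.18% and 1.69% of all genes compared. Hal, the histidine ammonia lyase, was at 50.01, 12.5 and 17.4 CPM against 772, 647 and 490 (log2 ratio -4.75 ± 0.83). Sds, serine dehydratase, was at 30.8, 62.7 and 20.9 against 463, 482 and 930 (-4.07 ± 1.26), and Hsd17b6, a hydroxysteroid dehydrogenase, at 11.5, 25.1 and 13.9 against 357, 440 and 227 (-4.28 ± 0.48). Several were so rare in Central 1 that the number of UMIs says more than a ratio of levels. Cyp2f2, a periportal P450, had 6, 1 and 0 UMIs, 0.0742 times (0.0299 to 0.153) the number given by its non-Central level, and was seen in 0 of 131 thinned nuclei, a count that permits a share of 2.29% at most at this depth, against 9.72% of non-Central hepatocytes. Unthinned, 5 of the 131 nuclei (3.82%) held a Cyp2f2 UMI, against 32.1% of non-Central hepatocytes and 8.04% of other cell types. Gldc of the glycine cleavage system had 18, 1 and 0 UMIs (0.107 times, 0.0642 to 0.167). The exception was Prodh, proline dehydrogenase, which had been put on the periportal list but was at 208, 251 and 252 CPM in Central 1 against 85.7, 92.1 and 117 (1.27 ± 0.17).

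The remaining genes among the 10 lowest were not on the periportal list. Plxna2, a semaphorin receptor, had 0, 1 and 4.5 UMIs in Central 1 of the 3 WT mice, 0.0342 times (0.0119 to 0.0769) the number its non-Central level would give. Jazf1, a zinc finger protein of the nucleus, had 4 UMIs, all in WT mouse 3 (0.0611 times, 0.0166 to 0.156). C9, the terminal component of complement, was at 0.0490 times (0.0136 to 0.124), Sfxn1, the serine carrier of mitochondria, at 0.0591 times (0.0255 to 0.117) and Cryl1 at 0.0520 times (0.0169 to 0.121).

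Some P450 genes, among them the marker Cyp2c37, were higher, with mean log2 ratios below those of Slc1a2, Glul, Gna14 and Lgr5. Of 30 genes, 23 could be compared, with 5 higher and 1 lower (median 0.86), against 1.69% and 2.18% of all genes compared. Cyp2e1, which metabolizes ethanol and is the classic pericentral P450, was at 2499, 1989 and 2661 CPM against 986, 673 and 1042 (log2 ratio 1.42 ± 0.12). Its ratio was below that of Slc1a2 and Glul in every mouse, and Cyp2e1 was seen in 43.9% of non-Central hepatocytes at equal depth against 80.2% of Central 1 and 18.1% of other cell types. Cyp3a11, a major drug-metabolizing enzyme, was at 746, 1216 and 758 against 341, 334 and 164 (1.73 ± 0.55). Cyp1a2 had too few UMIs to be compared and was at 154, 56.4 and 139 against 22.4, 24.8 and 25.7. Its UMIs were 5.19 times (4.16 to 6.38) the number given by its non-Central level.

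Within the P450 family, close relatives differed. Cyp2a5 was higher (2.28 ± 0.36) and Cyp2a4 lower, at 26.9, 12.5 and 10.4 CPM against 100, 129 and 125 (-2.86 ± 0.87). Among the Cyp2c genes, Cyp2c37 and Cyp2c54 (1.82 ± 0.74) were higher, while Cyp2c29 (1.21 ± 0.82) and Cyp2c38 (1.25 ± 0.29) did not pass 2-fold in every mouse. The Cyp2a and Cyp2c genes are families of near-identical copies, and how reads were divided between them by the quantification makes each of these values uncertain. Ahr, the aryl hydrocarbon receptor, was at 750, 489 and 643 against 187, 275 and 234, a ratio of 1.43 ± 0.58 that did not pass 2-fold in WT mouse 2.

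A list of transport, signalling and metabolic genes described for the central zone had 8 of 14 genes higher and 1 lower (median 1.75). Beside those named above, Gulo, the last enzyme of vitamin C synthesis, was at 158, 226 and 230 CPM against 41.7, 42.5 and 56.1 (log2 ratio 2.10 ± 0.26). Car3, a carbonic anhydrase, was at 1219, 1160 and 675 against 332, 568 and 100 (1.88 ± 0.85), and Blvrb, a biliverdin reductase, had a ratio of 1.62 ± 0.25.

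Genes of fatty acid synthesis were among those lower. In the list of glycolysis and lipogenesis genes, 4 of 16 were lower, against 2.18% of all genes compared, 0 were higher and the median was -0.90. All 4 belong to fatty acid synthesis. Acly, which makes cytosolic acetyl-CoA, was at 38.5, 56.4 and 80.1 CPM against 484, 429 and 649 (log2 ratio -3.18 ± 0.39), and Acaca, acetyl-CoA carboxylase, was at 431, 386 and 718 against 2190, 1230 and 2428 (-1.92 ± 0.37). Fasn, fatty acid synthase (-1.54 ± 0.54), and Me1, malic enzyme (-1.51 ± 0.53), were also lower. In the list of fatty acid oxidation 11 of 12 genes had a mean ratio above 0 (median 0.60), but 0 were 2-fold higher in every mouse. The median of all genes compared was -0.07, and their share above 0 was not counted. Ppara, the receptor that drives fatty acid oxidation, was at 3489, 4398 and 3649 against 2133, 2513 and 2459 (0.70 ± 0.12).

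In several functions few or 0 genes passed 2-fold, where 1.69% of all genes compared were higher and 2.18% lower. At these shares a list of this size may hold 0 called genes, so that such a count does not set a function apart. Conjugation enzymes had 0 of 15 genes higher and 0 lower (median 0.39), with 14 of them above 0, a share that was not counted over all genes. Bile acid genes had 0 of 14 in either direction (median 0.20), among them Cyp7a1, the rate-limiting enzyme of bile acid synthesis, at 1023, 627 and 497 CPM against 427, 516 and 148 (log2 ratio 1.09 ± 0.74). Of 8 gluconeogenesis genes, Sds alone was lower (median -0.47), while Pck1, the enzyme usually named for this pathway, was at 2881, 3397 and 3217 against 3204, 3494 and 3050 (-0.04 ± 0.11). The 10 mitochondrially encoded genes had a median of -0.02 and the 13 genes of hepatocyte identity one of -0.18, with 0 called in either direction. The mitochondrially encoded genes had medians of -0.40, 0.48 and -0.09 in WT mice 1, 2 and 3, so that the mice differed in sign.

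NAD metabolism was examined because Nampt is the gene targeted in the study. Of the 9 genes for NAD salvage and use that could be compared, 1 was lower and 0 higher (median -0.10), against 2.18% and 1.69% of all genes compared. That gene was Slc25a51, the carrier that brings NAD into mitochondria, at 34.6, 37.6 and 24.3 CPM in Central 1 against 190, 172 and 172 (log2 ratio -2.45 ± 0.30). Nampt itself had a ratio of -0.59 ± 0.49, and Nmrk1, a nicotinamide riboside kinase, was at 61.5, 62.7 and 59.1 against 61.5, 66.1 and 69.3 (-0.10 ± 0.12). In the route from tryptophan to NAD, Kynu, kynureninase, alone was lower of 8 genes, at 912, 533 and 650 against 1866, 1386 and 1464 (-1.19 ± 0.17). Tdo2, which starts this route, was at 966, 1109 and 2108 against 1397, 1038 and 2101 (-0.14 ± 0.34).

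**Figure D3:**
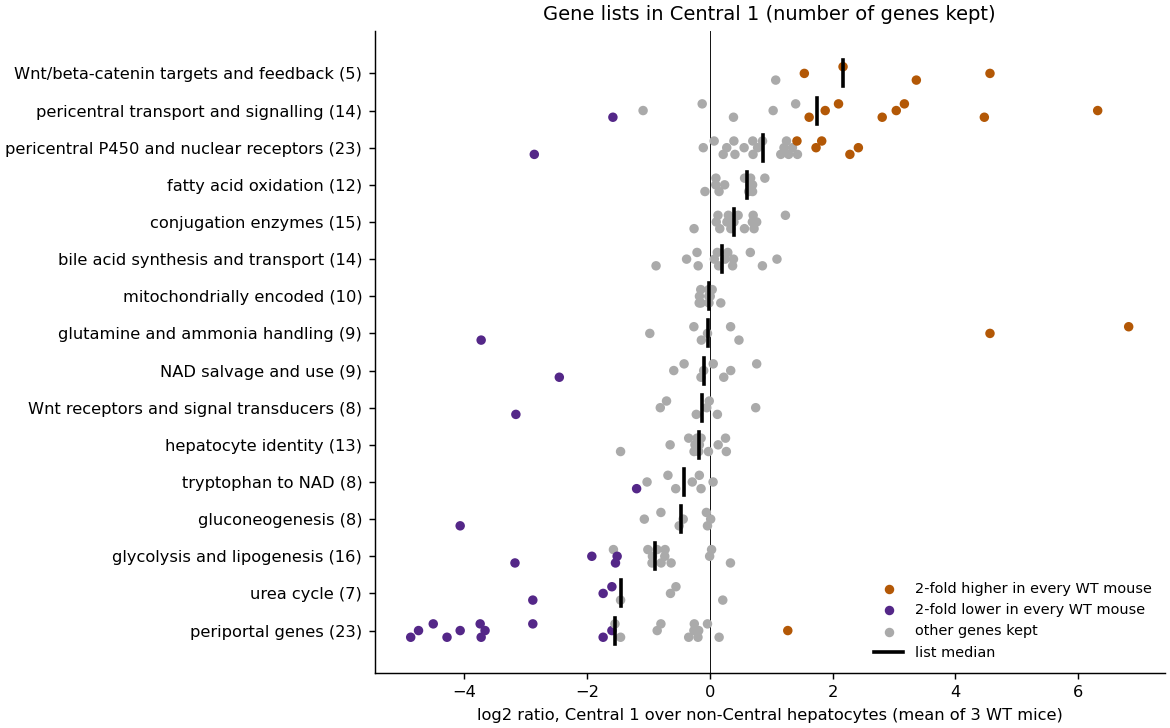
Mean log2 ratio of Central 1 over non-Central hepatocytes in 3 WT mice for each gene of 16 lists that could be compared (1 point per gene, number of genes in parentheses, vertical bar at the list median). The medians run from 2.17 for Wnt/beta-catenin targets to -1.55 for periportal genes, and glutamine and ammonia handling holds genes at both ends.

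Nearly all non-Central hepatocytes of WT mice could then be divided by their deposited names into clusters called Hepatocytes, without a zone, and clusters called Periportal. Of the 48 genes higher in Central 1, 43 had the order Central 1, Hepatocytes, Periportal in every WT mouse, and 56 of the 62 lower genes had the reverse order. The step sizes divided the genes. Among the higher genes, 34 fell at least 2-fold from Central 1 to Hepatocytes in every mouse and 25 from Hepatocytes to Periportal, with 18 in both, 16 at the first step alone, 7 at the second alone and 7 at neither. Among the lower genes, 45 rose at least 2-fold at the first step and 16 at the second, with 11 in both and 34 at the first step alone. The median log2 steps were 1.66 and 1.70 for the higher genes and -1.95 and -0.73 for the lower genes, written as the inner cluster over the outer one. These clusters were also made from the same genes, so that the steps are a description. The 48 and 62 genes were picked by their ratio to these same clusters pooled, which in part set the order and the first step in advance. How many of all genes compared had this order or these steps was not counted.

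Slc22a3 changed almost wholly at the first step, with a log2 ratio of 6.22 ± 1.14 for Central 1 over Hepatocytes and 0.31 ± 0.66 for Hepatocytes over Periportal. Glul (4.29 ± 0.14, then 0.78 ± 0.24) and Sgcz (5.62 ± 0.63, then 0.48 ± 1.25) were alike in this. Gna14 was lower in Hepatocytes than in Periportal clusters (4.91 ± 0.43, then -0.79 ± 0.20). Lgr5, in contrast, had its larger step between Hepatocytes and Periportal, with 637, 859 and 541 CPM in Central 1, 77.0, 169 and 103 in Hepatocytes and 1.38, 2.34 and 1.54 in Periportal clusters (2.58 ± 0.39, then 5.35 ± 0.32). Cyp2e1 (0.74 ± 0.22, then 3.11 ± 0.62) and Lhpp (2.29 ± 0.30, then 4.52 ± 0.76) were also graded in this way. On the lower side, Arg1 was low in Central 1 alone (-2.80 ± 0.82, then -0.20 ± 0.15), Sds differed at both steps (-2.28 ± 1.10, then -2.77 ± 0.06), and Cryl1 differed mainly between Hepatocytes and Periportal (-1.27 ± 0.78, then -3.87 ± 0.53).

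**Figure D4:**
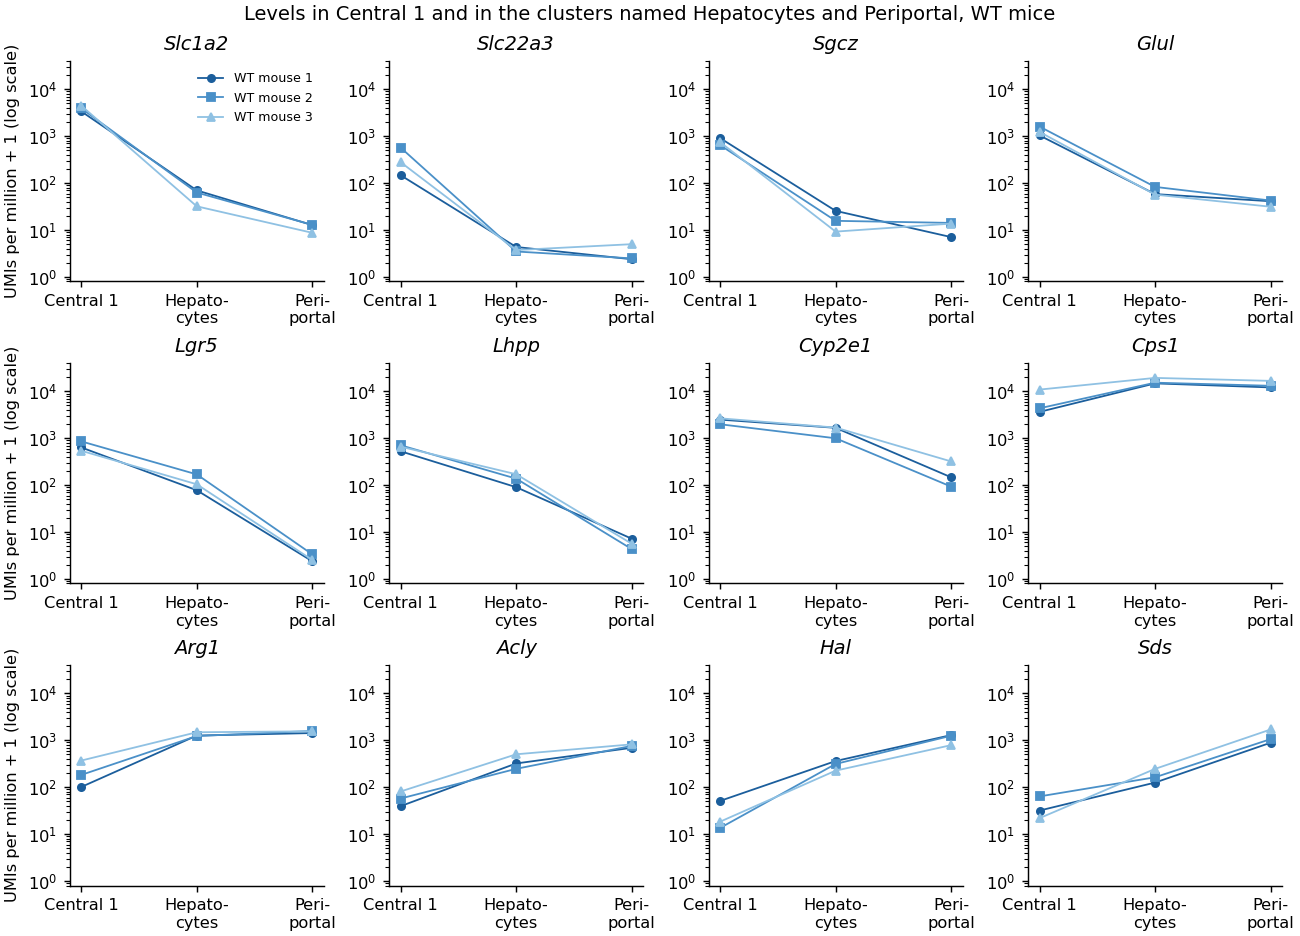
Levels of 12 genes in CPM plus 1 (log axis) in Central 1 and in the clusters named Hepatocytes and Periportal, with 1 line per WT mouse. Slc22a3, Sgcz and Glul drop steeply at the first step, Lgr5, Lhpp and Cyp2e1 mainly at the second, and Arg1 is low in Central 1 alone among these 3 groups.

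Genes of other liver cells were looked for in Central 1, because a droplet may hold RNA of a neighbour. The 10 endothelial markers summed to 42.3, 179 and 59.2 CPM in Central 1, to 38.4 to 44.4 in non-Central hepatocytes and to 4212 to 5424 in nuclei of other cell types, with 4 to 5 of the 10 at 0. WT mouse 2 was the highest. The 7 markers of central vein endothelium summed to 8.50 to 28.2 in Central 1 against 5.98 to 8.20 in non-Central hepatocytes, with 4 to 6 at 0. The 8 Kupffer and myeloid markers summed to 3.48 to 12.5 in Central 1 and 7.34 to 11.9 in non-Central hepatocytes. The 10 stellate markers summed to 103 to 213, against 41.1 to 84.1 and 3672 to 4665, with 6 to 8 at 0, and this was almost all Reln, the reelin gene. Reln was at 91.3, 138 and 203 against 28.5, 36.7 and 75.4 (log2 ratio 1.65 ± 0.23). The 8 lymphocyte markers summed to 1096, 1021 and 797 in Central 1, above the 705, 539 and 534 of non-Central hepatocytes in each mouse, and to 1829, 1729 and 749 in other cell types, with 2 to 4 of the 8 at 0 in Central 1. Most of this was Bach2, a transcription factor best known from lymphocytes, at 1069, 993 and 758 in Central 1 against 691, 518 and 513 (0.71 ± 0.20). The 9 cholangiocyte markers summed to 265 to 334 in Central 1, 309 to 353 in non-Central hepatocytes and 339 to 862 in other cell types, and Pkhd1 was the one with enough UMIs (-0.14 ± 0.27). Among genes called higher in Central 1, Reln, Lrmda, Prex2, Mid1 and Tgfbr3 had higher levels in other cell types in each WT mouse. Lrmda was at 244, 610 and 548 CPM in Central 1 and at 2981, 2271 and 3215 in other cell types. Prex2 was at 85.2, 142 and 173 against 977, 931 and 1047. The 5 pericentral markers went the other way in each WT mouse. The part of RNA from other cell types in the results was not tested.

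UMIs of at least 2 different markers of another cell type were found in 29 of the 131 WT Central 1 nuclei, in 334 of 1801 non-Central hepatocytes and in 192 of 199 other nuclei. Without those 29 nuclei the mean log2 ratios were 6.77 for Slc1a2, 4.70 for Glul, 4.67 for Gna14, 3.10 for Lgr5, 2.31 for Cyp2c37 and 1.82 for Reln, so that the marker ratios were about as large without them.

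In Central 1 of the mouse labelled HNKO 2, the pericentral genes were again high. Slc1a2 was at 4430 CPM against 86.8 in the non-Central hepatocytes of the same mouse, Glul at 1632 against 43.9, Gna14 at 453 against 11.3, Lgr5 at 534 against 42.8 and Cyp2c37 at 532 against 89.0. At equal depth 59 of its 80 nuclei (73.8%) held at least 3 of the 5 markers. Of the genes higher in WT Central 1, 47 of 48 were at least 2-fold higher in this mouse too, and of those lower, 55 of 62 were at least 2-fold lower, where 4.25% and 4.53% of all genes compared passed 2-fold in this mouse. The exceptions were Pde4b, a phosphodiesterase, among the higher genes and Kynu, Lrig1, Fam20a, Grid1, Cdh18, Zfp608 and ENSMUSG00000115022 among the lower ones. These nuclei had been put in the same cluster as those of WT mice by their expression, and the mouse stands alone in its group, so that the genotypes were not tested against each other.

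Few genes of this mouse lay far outside the WT range. In Central 1, 3 genes (0.105%) were at least 2-fold above the highest WT mouse and 6 (0.211%) at least 2-fold below the lowest. The higher ones were Hamp, the iron hormone hepcidin, at 810 CPM against 260, 188 and 403, Aacs, acetoacetyl-CoA synthetase, at 303 against 69.2, 75.2 and 137, and Fads1, a fatty acid desaturase, at 158 against 46.2, 25.1 and 48.7. Aacs, Hamp and Fads1 were at 330, 989 and 137 in the non-Central hepatocytes of this mouse, so that none of the 3 was 2-fold apart between its 2 groups of nuclei. Among those lower was Sgcz, at 297 against 912, 645 and 747, while its level in the non-Central hepatocytes of the mouse was 10.0. The other 5 lower genes were Txnip, Tmem87b, A330023F24Rik, Grk3 and Zfp976. In the non-Central hepatocytes of the same mouse 1 gene, Pnpla3 (0.0351%), was above the WT range by this rule and 0 (0.0%) below.

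The clusters Central HNKO 1 and Central HNKO 2, which came almost wholly from 1 mouse each, are set beside Central 1, each against the non-Central hepatocytes of its own mouse. In Central HNKO 1, 43 of the 48 higher genes were at least 2-fold higher and 50 of the 62 lower genes at least 2-fold lower, where 3.62% and 3.97% of all genes passed. In Central HNKO 2 the numbers were 33 and 43, where 2.74% and 3.41% passed. All 3 mice labelled HNKO together shared 32 of the 48 and 42 of the 62, and the share of all genes that passed in all 3 was not counted. The median log2 ratio of the 48 higher genes was 2.25 in WT Central 1, 2.43 in Central 1 of the mouse labelled HNKO 2, 1.80 in Central HNKO 1 and 1.86 in Central HNKO 2. For the 62 lower genes it was -2.37, -2.23, -1.78 and -1.49. Both sets were picked by passing 2-fold in every WT mouse, which favours larger ratios in WT mice. Smaller medians elsewhere are therefore not read as a difference.

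The strongest markers were high in every setting. Slc1a2 had log2 ratios of 5.66, 7.15 and 7.02 in the mice labelled HNKO 2, 1 and 3, and Glul had 5.18, 5.51 and 5.47. Rcan2 had 2.71, 1.39 and 0.91 in the same order. Its levels in the central clusters were 363, 409 and 542 CPM and its levels in the non-Central hepatocytes 54.6, 156 and 288, against a WT mean of 400 and 43.7, so that the smaller ratios came with higher non-Central levels. Slc22a3 was at 5.76, 7.43 and 3.87. Among periportal genes, Ass1 had -1.62, -0.22 and -0.96, whereas Hal had -4.30, -4.63 and -2.89. Each of these values rests on 1 mouse, cluster and mouse cannot be told apart, and none of the differences between them was tested.

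**Figure D5:**
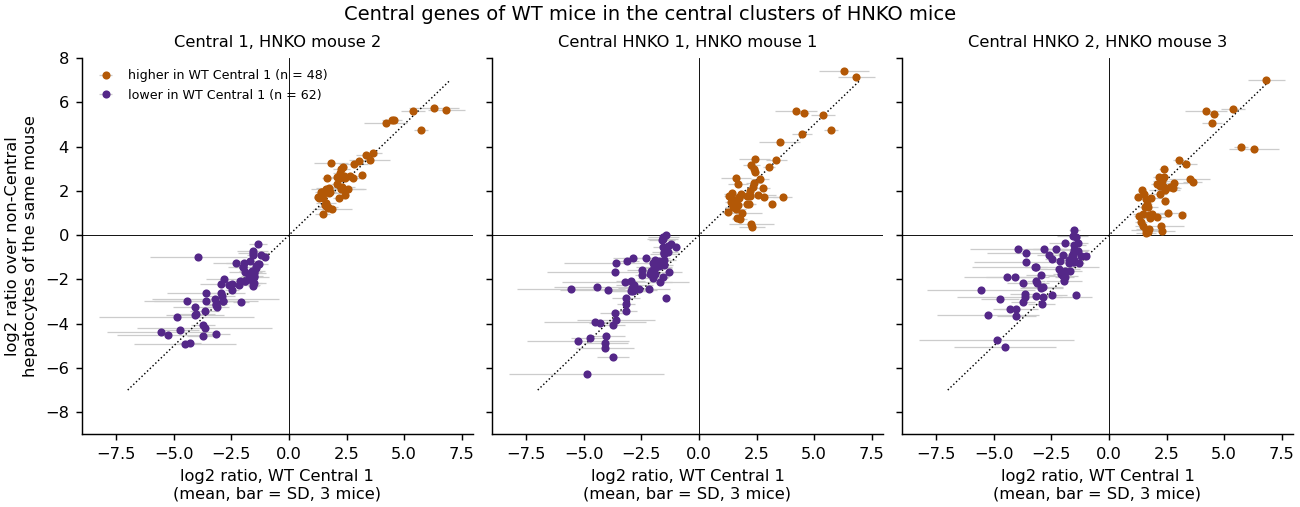
Log2 ratio over non-Central hepatocytes of the same mouse in Central 1 of the mouse labelled HNKO 2, Central HNKO 1 and Central HNKO 2 (vertical axes) against the mean in WT Central 1 (horizontal axis, bars are SD of 3 mice), for the 48 higher and 62 lower genes. All 48 higher genes lie above 0 in each panel, and 47, 43 and 33 of them passed 2-fold in the left, middle and right panel.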

How the data were processed

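Per the labels and the study's methods, the authors demultiplexed reads with Cell Ranger 5.0.1 and quantified them with Alevin on GRCm38 and the GENCODE M25 gene model, introns included. They deposited estimated counts of UMIs per gene and nucleus, of which 10.1% of the nonzero ones were fractional (over 0.001 from an integer). They also deposited SCTransform-corrected values, a score used here as an alternative alone, and hashtag counts. The 4 deposited samples are 2 RNA pools and 2 hashtag pools of the same nuclei. Nuclei with hashtags of several mice had been removed by the authors, and no doublet caller was run here. A mouse had 629 to 1063 nuclei with 3766532 to 7763269 UMIs in all, and a nucleus had 1349 to 44204.

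UMIs were summed per mouse and cluster with Python version 3.11.15 (numpy 2.4.6, scipy 1.17.1, pandas 2.3.3) and scaled to CPM of the UMI total. Ratios are log2 of (CPM + 1) within a mouse, with mean and SD over WT mice, so that ratios of rare genes are understated. A gene was called higher or lower at 2-fold in every WT mouse. Clusters were not tested against each other because they were made from these values, and an edgeR test between genotypes was planned for at least 2 mice per genotype with 10 or more Central 1 nuclei, which was not met. Mice were replicates and nuclei were not. Whether the mice differ in litter or day was not given in the sources used here. The ratios were tested on simulated counts with known changes. For rare genes the observed UMIs were divided by the number expected from the non-Central level of the same mice, with an exact Poisson interval of 95%. A share of 0 was bounded at 3 counts.

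Named genes were the 5 markers, Nampt, the 15 highest and 10 lowest called genes, up to 4 of the largest ratios in each list, and members a list is known for. Further genes named beside them, such as Prodh, Gulo, Car3, Blvrb, Cyp3a11, Pck1, Tcf7l2 and the genes of the mouse labelled HNKO 2, were chosen after their values were seen. The members and the 23 lists were chosen with earlier results of these data known. Coordinates and overlaps came from a GRCm38 annotation (143 of 149 genes matched), promoter windows from RefSeq on GRCm38.p6. Alternatives used edgeR version 4.0.16 (TMM) and DESeq2 version 1.42.0 (size factors) in R version 4.3.3, on sums rounded to whole numbers, for scaling alone. Figures were drawn with matplotlib version 3.10.9. Values of some single genes are not reported here.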

Additional observations from a re-analysis of the deposited data

How the results depend on the processing

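In the count of genes higher and lower in Central 1 (48 and 62), TMM scaling gave 42 and 79, DESeq2 size factors 52 and 57, the mean over nuclei 55 and 55, the SCTransform score 52 and 65, and 10 added CPM 47 and 55. Leaving out the Central 1 nuclei with at least 2 markers of another cell type, but no non-Central ones, gave 45 and 55. Other settings moved a count by over 1.5 times. A minimum of 30 UMIs gave 33 and 25, no minimum 127 and 771, a 1.5-fold threshold 121 and 126, and thinning to 1000 UMIs 22 and 16. Leaving out 1 WT mouse at a time gave 64 to 95 higher and 79 to 109 lower, the most without WT mouse 2. With the clusters named Hepatocytes alone as reference the counts were 34 and 40, and with Periportal alone 108 and 97 (both chosen after seeing the data). Fewer or more genes pass by construction under the other minimum, threshold and depth. The cause was not tested elsewhere. No called gene changed its direction in any of these settings. This was certain in advance for a left-out mouse and for another minimum, threshold or added CPM, since called genes had the same direction in every WT mouse. A gene without an SCTransform score was counted as unchanged.

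Of the genes on the 17 lists of functions, chosen with earlier results of these data known, 19 were higher and 20 lower. Over all 2845 genes compared the shares were 1.69% and 2.18%, and no share of the list genes was taken. The lower count of list genes moved to 13 at 30 UMIs and 10 after thinning, and the higher count to 29 at 1.5-fold and 33 against Periportal alone. Without 1 WT mouse it was 21 to 30 higher and 21 to 26 lower. The list medians changed sign for stellate genes without a minimum (-0.32) and for NAD salvage and use against Hepatocytes alone (0.11). TMM moved the median of all genes from -0.07 to -0.23, and list medians fell with it. The shares of nuclei with a UMI at their own depth were 74.0% for Glul, 100% for Slc1a2, 70.2% for Lgr5, 76.3% for Cyp2c37 and 42.0% for Gna14.

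Each ratio above was taken within a mouse. No paired analysis was possible because, between the genotypes, the replicate numbers 1 and 2 of the labels name pools of the same nuclei, which were not told apart per nucleus, and no test between genotypes was made. Since 1 mouse labelled HNKO alone had 10 or more Central 1 nuclei, that test and its other scalings, DESeq2, filter, left-out mice and replicate block were not run.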
